A study of Sus scrofa with 3 samples.

Results

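Castration removes the main source of testosterone in a male, and giving the hormone back shows which kidney transcripts differ when it is returned. The comparison here set castrated Wuzhishan pigs given testosterone (CMT) against castrated Wuzhishan pigs without it (CM), and intact males (IM) of the same study were used as a reference level. All pigs of the 3 groups were 6 to 7 months old and ate a diet high in fat and cholesterol, so there was no group on ordinary feed. RNA from the kidneys of 3 pigs was pooled in equal amounts for each group and sequenced as 1 library, which gives 2 libraries from 6 pigs for this comparison and no replicate of either group. How much testosterone was given, for how long, and what blood levels it reached are not stated in the labels used. Of 34570 genes in the table, the 15472 with a mean of at least 1 CPM (counts scaled to a common library size) over the 3 libraries were compared. Just inside that limit lay GPR111 with 18, 12 and 17 counts in IM, CM and CMT, MITD1 with 27, 16 and 7, and STOX1 with 19, 18 and 12. Just outside lay CCDC114 with 18, 19 and 12 counts, CT55 with 17, 13 and 17, and NCCRP1 with 13, 29 and 9.

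Testosterone enters its target cells and acts mainly by changing transcription in the nucleus. It can also be reduced to the stronger androgen dihydrotestosterone or converted to estradiol, and enzymes that oxidise, reduce or sulfate steroids set how much active hormone a cell sees. The tubule responds to androgens, and the mouse kidney is a classic androgen-responsive organ. The proximal tubule, which reclaims most of the filtrate, also makes glucose, breaks down amino acids, burns fatty acids and carries a set of cytochrome P450 enzymes.

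Counts are given below in the order IM, CM and CMT as deposited, and each fold is CMT against CM after scaling for library size. The interval after a fold is its exact 95% interval, which covers counting error only, because pooling hides the spread between pigs and reads are not independent molecules. Only a gene whose interval lies wholly beyond 2-fold is called higher or lower. There is no p-value, and every difference is one between 2 pooled libraries without a replicate check. A gene that was not called may still differ, and its fold is then given as above or below. Uncalled members of a gene list, other than those the naming rule covers, were picked for naming after their values were seen.

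In all, 285 genes (1.84% of those compared) were higher and 171 (1.11%) were lower in CMT than in CM. Calls in the gene lists below are to be set against these shares, 2.95% in both directions together. A list with 1 call is described by that gene only. The higher genes carried far more of the RNA. They held 4.83%, 2.22% and 7.08% of all counts in IM, CM and CMT, whereas the lower genes held 0.308%, 0.946% and 0.253%. Among the 496 genes with a mean of at least 300 CPM, 35 were higher and 2 were lower, against 61 higher and 47 lower of the 2809 genes between 1 and 3 CPM. The median fold of called genes was 4.21 for the higher and 4.25 for the lower ones. Over all compared genes the median log2 fold was -0.004, and the middle 90% of them lay between -0.80 and 0.81. For 11815 genes (76.4%) the whole interval lay within 2-fold in either direction. Counting error thus left no room for a difference beyond 2-fold between these 2 libraries in most compared genes. The share with the whole interval within 2-fold was 22.8% between 1 and 3 CPM, where the typical interval was widest.

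**Figure D1:**
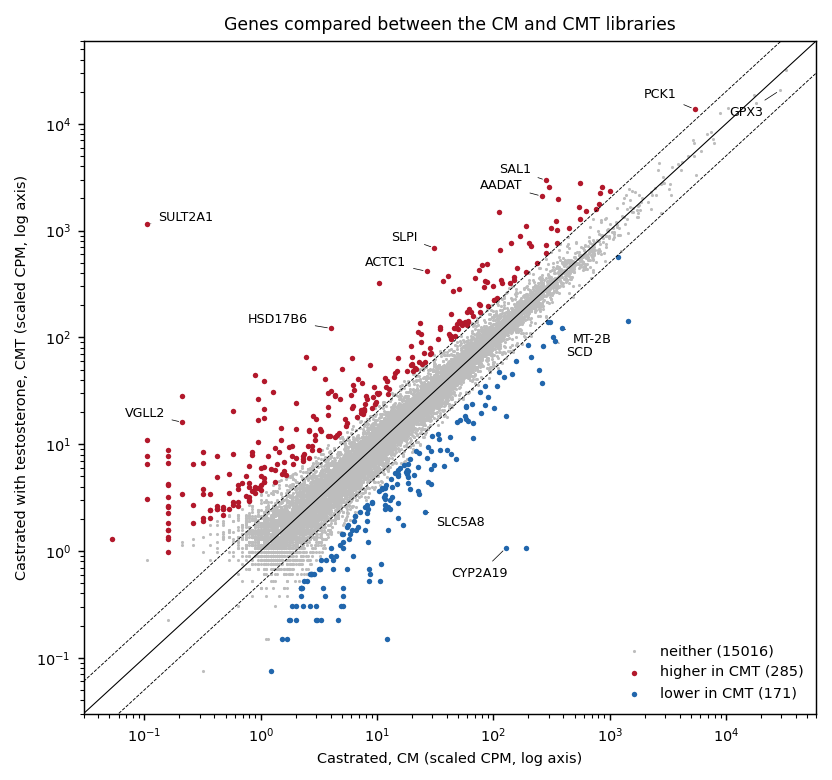
Scaled CPM of each compared gene in CM (x, log axis) and CMT (y, log axis). The solid line marks equal levels and the dashed lines 2-fold, a gene with 0 counts is drawn at the level of 3 counts, and the 285 higher genes reach well into the abundant range while the 171 lower genes are mostly of low or middle level.

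**Figure D2:**
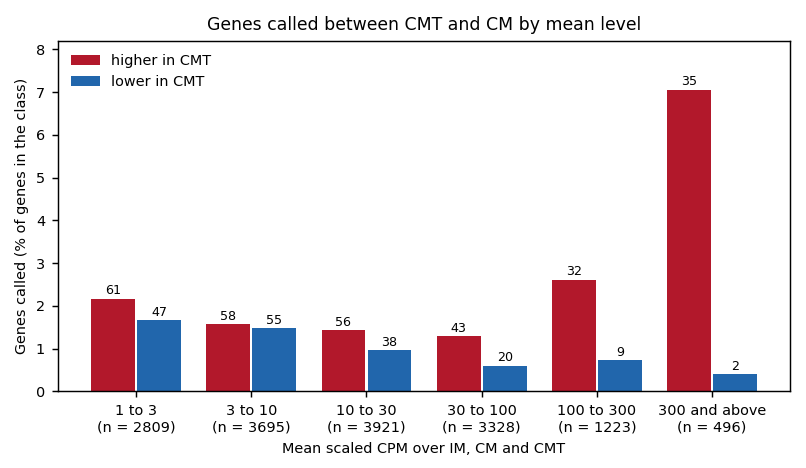
Share of genes called higher or lower in CMT (y, percent of the genes in the class) by mean scaled CPM over the 3 libraries (x), with the number called over each bar. In the class of 300 CPM and above, 35 genes were higher and 2 lower, against 61 higher and 47 lower in the class of 1 to 3 CPM.

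The libraries matched their tissue label. Markers of the proximal tubule, loop of Henle, collecting duct and podocyte were present in each library, for example CUBN, the vitamin B12 and protein uptake receptor, at 1522, 1783 and 1732 CPM. Depth was 13601475 to 18503537 counts, and ribosomal RNA took 1.73% to 2.14% and mitochondrial transcripts 8.43% to 8.83% of them. The liver genes CPS1 and CYP2E1, the adrenal genes CYP17A1 and NR5A1, the fat cell genes ADIPOQ and LEP and the muscle genes MB and NEB had 0 counts in all 3 libraries. These were picked from lists whose other members had reads. Examples are the adrenal gene STAR with 12, 3 and 13 counts, the fat cell gene CIDEC with 224, 125 and 113, and the muscle gene CKM with 412, 387 and 275. A small share of other tissue was not tested. In pooled tissue, fewer cells of a type and less RNA per cell cannot be told apart, and this holds for every cell marker named below.

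Steroid enzymes gave some of the strongest higher calls and 1 lower call, while ESR1 was the only one called of the steroid receptors compared. SULT2A1, which sulfates DHEA and other hydroxysteroids, had 5929, 2 and 15219 counts, close to absent in CM alone. Its ratio of 10868 (3008 to 89749) rests on those 2 counts. HSD17B6, which oxidises androstanediols back towards dihydrotestosterone, had 428, 76 and 1607 counts, and CMT stood 30.2-fold (23.99 to 38.5) above CM. HSD17B2, which inactivates testosterone and estradiol by oxidation, ran the other way with 351, 1686 and 365 counts and was 3.23-fold lower (2.89 to 3.63). HSD17B4, a peroxisomal enzyme of fatty acid oxidation as well as of estradiol, was higher at 11993, 3978 and 9458 counts (3.396-fold, 3.27 to 3.53). RDH16, a retinol and 3-alpha-hydroxysteroid dehydrogenase, had 3293, 3019 and 5863 counts and was 2.77-fold higher (2.65 to 2.899), with IM beside CM and CMT above both. POR, the reductase that passes electrons to microsomal P450 enzymes, was 2.38-fold higher (2.22 to 2.56). Together 5 of 24 compared genes of steroid metabolism were higher and 1 was lower, 25% called against 2.95% of all genes. Their median log2 fold was 0.04 against -0.004 for all genes.

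SRD5A1, the 5-alpha-reductase that makes dihydrotestosterone, had 267, 406 and 297 counts and stood at 1.04-fold (0.897 to 1.22), an interval that leaves no room for a 2-fold difference by counting error. STS, which removes sulfate from steroids, had 1067, 2221 and 773 counts, 2.01-fold below CM (1.85 to 2.19), just short of a call. HSD11B2, which protects the mineralocorticoid receptor from cortisol, stood 1.22-fold below (1.18 to 1.25). Of the 14 receptors and coregulators only ESR1, the estrogen receptor alpha, was called, with 252, 18 and 140 counts and a fold of 11.1 (6.78 to 19.3). The glucocorticoid receptor NR3C1 stood 1.17-fold below (1.04 to 1.32). NR3C2, the mineralocorticoid receptor, stood 1.199-fold above (0.894 to 1.61).

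A list of genes known to respond to androgens in other tissues gave calls at about the rate of all genes, 3.03% of its members against 2.95% of all compared genes in both directions. Of 33 compared members, ELL2, an elongation factor of RNA polymerase II, was higher at 639, 271 and 612 counts (3.23-fold, 2.79 to 3.74), 0 were lower, and the median log2 fold was 0.06. EAF1, a partner protein of the ELL factors that is not on the list and was picked after its values were seen, was higher too, with 11496, 2176 and 8739 counts (5.74-fold, 5.47 to 6.01). FKBP5, a chaperone gene induced by androgens and glucocorticoids, stood 1.95-fold above (1.81 to 2.10), and HOMER2 1.80-fold above (1.704 to 1.91). TMPRSS2, a classic prostate target, stood at 1.30-fold above (1.19 to 1.43). Polyamine genes, androgen targets in rodent kidney, gave 0 calls among 17. ODC1, a member of both lists, had no row under that symbol, so its response was not tested.

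A gene tied to male scent also stood out. SAL1 encodes salivary lipocalin, a carrier of the steroid pheromones of the boar, and had 2721, 5352 and 39149 counts. It was 10.45-fold higher in CMT (10.15 to 10.75), and here the intact pool was the lowest of the 3.

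**Figure D3:**
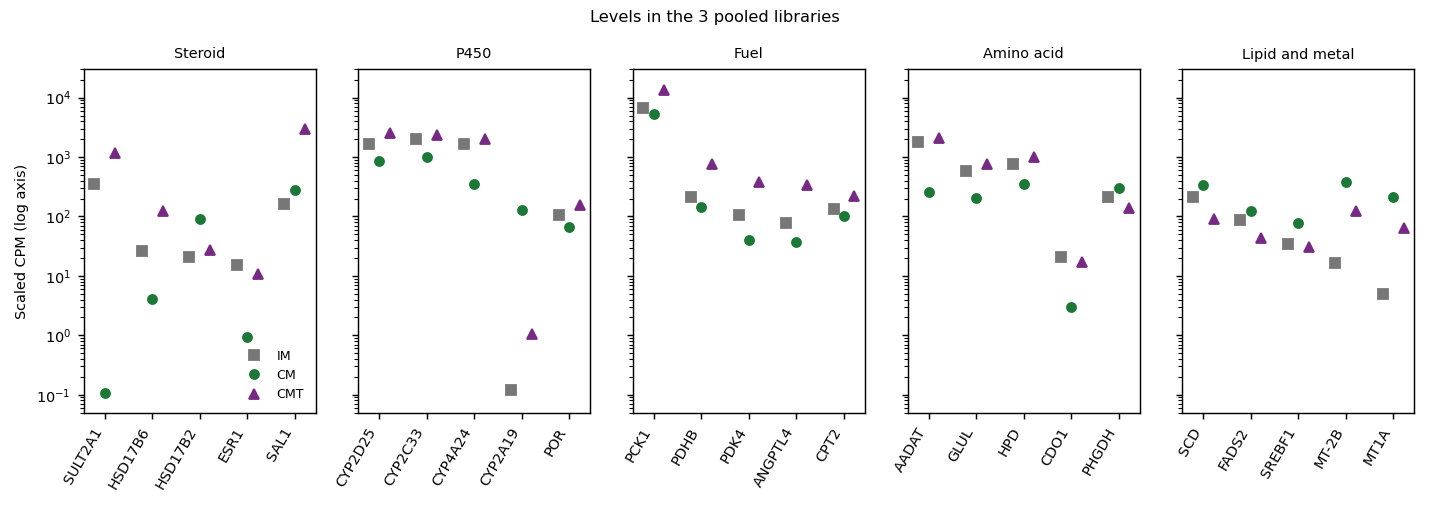
Scaled CPM (y, log axis) of 25 genes named in the text in IM, CM and CMT, 1 point for each pooled library and therefore without error bars. Heights are to be compared within a gene, and for SULT2A1, AADAT, CYP4A24, GLUL, HPD and CDO1 the point of CM lies below both others.

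Protein uptake and bulk ion transport genes of the proximal tubule stayed mostly within 2-fold. Genes of megalin and cubilin uptake gave 0 calls among 19, and all 19 intervals lay within 2-fold. LRP2, which encodes megalin, had 2510, 3083 and 1745 counts (1.24-fold below, 1.17 to 1.31), and CUBN had 25207, 33712 and 22921 (1.03-fold below, 1.01 to 1.05). The widest gap in this list was that of LGMN, a lysosomal protease, with 42071, 52555 and 19403 counts (1.896-fold below, 1.86 to 1.93). SLC34A1, the main phosphate transporter, had 23931, 29466 and 19917 counts (1.04-fold below, 1.02 to 1.05). The sodium-proton exchanger SLC9A3 stood 1.09-fold below (0.941 to 1.26), and the basolateral bicarbonate transporter SLC4A4 1.09-fold above (1.05 to 1.13). In the phosphate and acid list 1 of 19 was higher, SLC4A5, a bicarbonate cotransporter with 79, 49 and 177 counts (5.16-fold, 3.74 to 7.23), and 0 were lower.

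Sugar transport gave 0 calls among 13 and amino acid transport 0 among 26. SLC5A2, the major glucose carrier of the early proximal tubule, had 9137, 6974 and 5583 counts and stood 1.14-fold above (1.104 to 1.18). SLC5A1, the glucose carrier of the late segment, had 313, 529 and 264 counts (1.403-fold below, 1.21 to 1.63). The basolateral exit carrier SLC2A2 stood 1.53-fold above (1.28 to 1.84), and the fructose carriers SLC2A5 and SLC5A10 each stood 1.71-fold below (1.56 to 1.87 and 1.58 to 1.84). Of the amino acid carriers, SLC6A19 for neutral amino acids was 1.04-fold below (0.999 to 1.09). SLC3A1 and SLC7A9, the subunits of the cystine carrier, stood 1.24-fold above (1.198 to 1.28) and 1.17-fold below (1.095 to 1.26). Nearest to a call were SLC38A3, the glutamine carrier, with 4954, 2597 and 3800 counts (2.09-fold above, 1.99 to 2.198), and SLC7A7, with 6750, 13045 and 4718 (1.94-fold below, 1.87 to 2.002).

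Carriers of organic ions and of small acids differed gene by gene. The organic anion, cation and urate list had 2 higher and 1 lower of 28, 10.7% called against 2.95% of all genes. SLCO4C1, an organic anion carrier that takes up cardiac glycosides and thyroid hormone, had 1236, 286 and 843 counts and was 4.21-fold higher (3.68 to 4.83). SLC22A10 had 3014, 959 and 1866 counts and was 2.78-fold higher (2.57 to 3.01). SLC22A7, the organic anion transporter OAT2, fell from 154 to 36 counts with 18 in IM (2.995-fold, 2.07 to 4.43), on few reads. The most abundant of the list, SLC22A8 or OAT3, had 46864, 61388 and 32719 counts and stood 1.31-fold below (1.296 to 1.33). SLC22A2, the organic cation transporter, stood 2.02-fold above (1.92 to 2.13), and the urate exchanger SLC22A12 1.47-fold above (1.43 to 1.498). In the list of 21 monocarboxylate, dicarboxylate and sulphate carriers matched by symbol, SLC5A8 was the only call. It takes up lactate and short-chain fatty acids, and its counts of 2, 489 and 31 made it 11.04-fold lower (7.68 to 16.4), while its relative SLC5A12 had 22131, 17389 and 17075 (1.402-fold above, 1.37 to 1.43). A vitamin C carrier with a row named SVCT1, picked after its values were seen, was higher with 5500, 3593 and 5396 counts (2.15-fold, 2.06 to 2.24). The list names this carrier as SLC23A1, so the SVCT1 row was not counted in it.

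On the brush border 1 of 18 peptidases and hydrolases was higher and 0 lower, 5.56% called against 2.95% of all genes. It was GGT1, which starts the breakdown of extracellular glutathione, with 18879, 10442 and 17114 counts (2.34-fold, 2.28 to 2.399). In the vitamin D and klotho list the lone call was CYP27A1, a mitochondrial sterol 27-hydroxylase, with 94, 980 and 222 counts (3.09-fold lower, 2.67 to 3.59). CYP27B1, which makes active vitamin D, had 435, 482 and 682 counts, 2.02-fold above (1.796 to 2.28). The CMT pool was thus the highest of the 3 for CYP27B1, with an interval that spans 2-fold. CYP24A1, which breaks active vitamin D down, stood 1.04-fold above (0.955 to 1.14), and KL, the klotho gene, 1.02-fold below (0.960 to 1.08).

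Filtration and blood pressure genes gave no call. None of 25 podocyte and filter genes and none of 29 endothelial, mesangial and stromal genes passed. NPHS1, the slit diaphragm gene nephrin, had 147, 178 and 151 counts and stood 1.21-fold above (0.969 to 1.51). COL4A3 and COL4A4, which form the glomerular basement membrane collagen together with COL4A5, stood 1.62-fold (1.403 to 1.87) and 1.63-fold (1.397 to 1.91) below. COL4A5 itself stood 1.07-fold above (0.916 to 1.26). The list of 26 vasoactive genes was likewise without a call. ACE, which makes angiotensin II, had 13881, 27367 and 12697 counts and stood 1.51-fold below (1.48 to 1.54), with IM and CMT close together. AGT, the angiotensinogen gene, was under the CPM limit with 19, 10 and 10 counts. So was AVPR1A, a vasopressin receptor gene, with 6, 35 and 2 counts, although its interval lay wholly beyond 2-fold (12.25-fold below, 3.15 to 105.2).

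Salt and water handling beyond the proximal tubule showed a single call among its main lists. The thick ascending limb (18 genes), distal convoluted tubule (20), principal cell and sodium channel (22), water channel (7) and pump (26) lists had 0 called in either direction. SLC12A3, a planned marker of the distal tubule, had no row under that symbol and was not compared. S100G of the distal list was under the CPM limit with 7, 7 and 29 counts, 5.92-fold above (2.54 to 16). UMOD, the uromodulin gene of the ascending limb, had 94626, 130566 and 105591 counts (1.15-fold above, 1.15 to 1.16). SLC12A1, the sodium-potassium-chloride cotransporter there, had 5195, 6430 and 4169 (1.08-fold below, 1.04 to 1.12). The 3 subunits of the epithelial sodium channel stood at 1.17-fold (1.12 to 1.23) for SCNN1A, 1.13-fold (1.03 to 1.24) for SCNN1B, and SCNN1G had an interval of 0.936 to 1.07. The water channels AQP1, AQP2 and AQP3 stood at 1.02-fold below (0.983 to 1.06), 1.105-fold below (1.04 to 1.17) and 1.05-fold above (0.989 to 1.12).

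The exception was SLC26A4, which encodes pendrin, the chloride-bicarbonate exchanger of base-secreting intercalated cells. It had 700, 197 and 396 counts and was 2.87-fold higher in CMT (2.41 to 3.42). The other 17 intercalated cell genes were not called. SLC4A1, the anion exchanger of acid-secreting cells, stood 1.22-fold above (1.12 to 1.32), and FOXI1, the transcription factor of both kinds, 1.198-fold above (0.997 to 1.44). Of 19 potassium channel genes KCNU1, best known from sperm, was higher with 210, 116 and 856 counts (10.5-fold, 8.67 to 12.9).

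**Figure D4:**
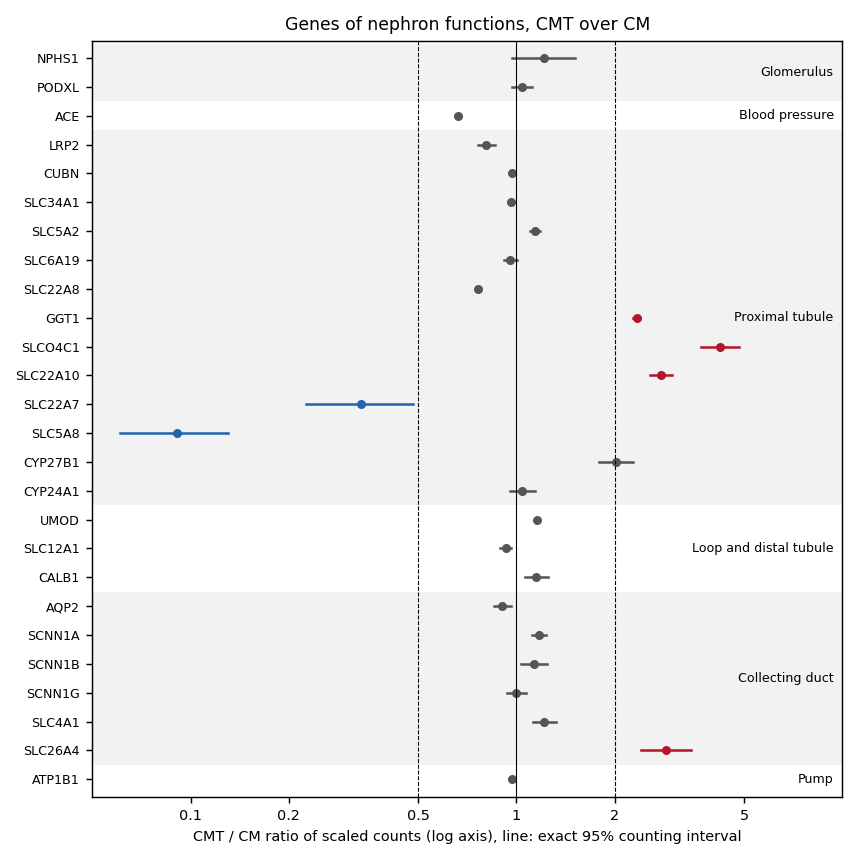
Ratio of scaled counts of CMT over CM (x, log axis) for 26 genes of nephron functions, points with exact 95% counting intervals, dashed lines at 2-fold. Most points lie between the dashed lines with short intervals, and the coloured ones, GGT1, SLCO4C1, SLC22A10 and SLC26A4 to the right and SLC22A7 and SLC5A8 to the left, are the called genes among those drawn.

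Glucose metabolism gave a few calls, all of them higher. PCK1, the rate-limiting enzyme of gluconeogenesis, which the kidney shares with the liver, had 112992, 101824 and 181368 counts. It was 2.54-fold higher (2.52 to 2.56), with the intact pool nearer to CM than to CMT. FBP1, a later enzyme of the same pathway, stood 1.196-fold below (1.18 to 1.22), and the mitochondrial form PCK2 1.37-fold below (1.34 to 1.401). Of 40 glucose genes 4 were higher and 0 lower (10% called against 2.95% of all genes), with a median log2 fold of -0.04. They included PDK4, which blocks pyruvate oxidation, at 1753, 770 and 4952 counts (9.19-fold, 8.51 to 9.92), and PDHB, a subunit of the very pyruvate dehydrogenase that PDK4 blocks. PDHB had 3532, 2689 and 10236 counts (5.44-fold, 5.21 to 5.68), whereas its partner subunit PDHA1 had 62884, 49169 and 48409 (1.41-fold above, 1.39 to 1.42). GAPDH, of glycolysis, had 15939, 19780 and 12936 counts (1.07-fold below, 1.05 to 1.09).

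Amino acid breakdown gave 4 higher and 0 lower of 50 genes (8% called against 2.95% of all genes), with a median log2 fold of -0.07. AADAT, an aminotransferase of kynurenine and lysine breakdown, had 29481, 4932 and 27834 counts and was 8.06-fold higher (7.82 to 8.31). GLUL, glutamine synthetase, had 9668, 3816 and 10194 counts (3.82-fold, 3.68 to 3.96). HPD, of tyrosine breakdown, had 12619, 6656 and 13454 counts (2.89-fold, 2.803 to 2.97), and HAO2, a peroxisomal oxidase of hydroxy acids, had 26557, 15464 and 23327 (2.15-fold, 2.11 to 2.199). In all 4 the CM pool was the low one. HGD, the next step after HPD, stood 2.05-fold above (1.95 to 2.15), and FAH, further down, 1.46-fold above (1.41 to 1.51). GATM, the first enzyme of creatine synthesis, had 43512, 25024 and 27015 counts (1.54-fold above, 1.52 to 1.57). ASS1, which makes arginine from citrulline in the kidney, had 68545, 105438 and 43618 counts (1.69-fold below, 1.67 to 1.71).

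PHGDH, which starts serine synthesis, was lower at 3518, 5799 and 1855 counts (2.19-fold, 2.08 to 2.31). SHMT2, which converts serine to glycine in mitochondria, stood 2.25-fold below (1.94 to 2.62) and AMT, of the glycine cleavage system, 1.48-fold below (1.302 to 1.69). CDO1, which oxidises cysteine and was named after its values were seen, was higher with 351, 57 and 226 counts (5.66-fold, 4.22 to 7.71).

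Genes that handle fatty acids in mitochondria, peroxisomes and the endoplasmic reticulum were higher in part, and genes that make fatty acids were lower in part. In the list of fatty acid oxidation, ketone and PPAR-alpha target genes 9 of 45 were higher and 1 was lower, with a median log2 fold of 0.10. The share called was 22.2% against 2.95% of all genes. CYP4A24 and CYP4A21, fatty acid omega-hydroxylases, had 27720, 6767 and 26390 and 15287, 3628 and 14528 counts and were 5.57-fold (5.42 to 5.72) and 5.72-fold (5.51 to 5.93) higher. These are near-identical copies, and how their reads were shared out is not known. ANGPTL4, a secreted inhibitor of lipoprotein lipase, had 1275, 697 and 4467 counts (9.15-fold, 8.45 to 9.93), and like PDK4 it was highest in CMT. CPT2, ACSM3 and CREB3L3 are further calls of the list, named after their values were seen. CPT2, the inner carnitine palmitoyltransferase, was higher (2.22-fold, 2.09 to 2.35), while CPT1A, the outer and rate-limiting one, had 5345, 4593 and 6536 counts at 2.03-fold above (1.96 to 2.11), short of a call by its lower bound. ACSM3, a medium-chain acyl-CoA synthetase, PLIN2, a lipid droplet coat protein, and CREB3L3, a transcription factor of lipid metabolism, were 2.72-fold (2.51 to 2.95), 2.62-fold (2.13 to 3.23) and 2.32-fold (2.05 to 2.63) higher. The lower gene was PPARA, the receptor that governs many of these genes, with 234, 343 and 76 counts (3.16-fold, 2.46 to 4.11). Core enzymes of the mitochondrial spiral did not follow, with HADHA 1.19-fold above (1.15 to 1.22), ACADM 1.03-fold above (0.998 to 1.07) and ACAA2 1.51-fold below (1.43 to 1.59).

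Peroxisomal genes were likewise uneven. Beside HSD17B4 and HAO2, SCP2, a sterol carrier and thiolase, had 4594, 1586 and 3947 counts (3.55-fold higher, 3.35 to 3.77) and ABCD3, a membrane transporter of the organelle, 1681, 1140 and 1843 (2.31-fold higher, 2.14 to 2.49). Both were named after their values were seen. SLC27A2, a transporter and activator of very long-chain fatty acids, was higher at 4736, 1682 and 4375 counts (3.72-fold, 3.51 to 3.93). EHHADH, of peroxisomal fatty acid oxidation, stood 1.05-fold above (0.943 to 1.16), ACAA1 1.26-fold below (1.23 to 1.304) and CAT, catalase, 1.56-fold below (1.53 to 1.58).

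Lipogenic genes gave 4 lower and 0 higher of 23 (17.4% called against 2.95% of all genes), with a median log2 fold of -0.04. SCD, which makes monounsaturated fatty acids, had 3593, 6438 and 1214 counts (3.71-fold lower, 3.49 to 3.95) and FADS2, a desaturase of polyunsaturated fatty acids, 1469, 2316 and 564 (2.88-fold lower, 2.62 to 3.16). SREBF1, the transcription factor of lipogenesis, had 581, 1455 and 411 counts (2.48-fold lower, 2.22 to 2.77), and PNPLA3, a looked-up symbol for a lipid droplet enzyme, 142, 422 and 48 (6.16-fold lower, 4.56 to 8.48). FASN, the fatty acid synthase that SREBF1 is known to regulate, stood 1.07-fold above (0.969 to 1.18), and ACACA 1.24-fold below (1.08 to 1.43). In cholesterol synthesis and uptake 1 of 33 was higher, FDPS with 2408, 1220 and 2295 counts (2.69-fold, 2.51 to 2.88), and 2 were lower, CYP27A1 and the sterol exporter ABCG1 with 104, 253 and 53 (3.34-fold, 2.48 to 4.58). The share called was 9.09%. Among 33 genes of droplets, lipases and uptake 4 were higher and 3 lower, 21.2% called. The lower ones were the apolipoprotein genes APOC3 with 249, 1591 and 307 counts (3.63-fold, 3.21 to 4.11) and APOA5 with 9, 57 and 4 (9.98-fold, 3.69 to 37.9), and the droplet coat gene PLIN4 with 180, 654 and 118 (3.88-fold, 3.19 to 4.76). LIPE, hormone-sensitive lipase, was higher with 88, 52 and 128 counts (3.52-fold, 2.53 to 4.95). For SCD, FADS2, SREBF1, PNPLA3 and PLIN4 the CMT pool was the lowest of the 3, below the intact one.

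Drug and steroid hydroxylases had the largest share of calls of any list of over 10 genes. Of 25 cytochrome P450, FMO and partner genes 8 were higher and 3 lower (44% called against 2.95% of all genes), with a median log2 fold of 0.11. CYP2D25, the pig microsomal vitamin D 25-hydroxylase, had 26966, 16267 and 33602 counts (2.95-fold higher, 2.895 to 3.01). CYP2C33 had 34008, 19013 and 30818 (2.31-fold, 2.27 to 2.36) and CYP2C49 19531, 11801 and 20197 (2.44-fold, 2.39 to 2.501). CYP2C36 and CYP2C42 went up more, to 5.65-fold (5.33 to 5.99) and 5.98-fold (5.65 to 6.33), and CYP2C32, which is not on the list, was 3.07-fold higher (3.001 to 3.15). Reads of the CYP2C family may be shared among close copies. The lower genes were CYP2A19, an enzyme that clears the boar taint compound skatole, with 2, 2411 and 14 counts (121-fold, 71.7 to 221), CYP2B22 with 33, 223 and 33 (4.73-fold, 3.27 to 7.04) and CYP4F2 with 1279, 3740 and 1127 (2.32-fold, 2.17 to 2.49). CYP2A19 was thus nearly confined to the castrated pool without hormone. FMO1, a flavin monooxygenase, stood at 1.397-fold above (1.37 to 1.43). ALAS1, the first enzyme of the heme that P450 enzymes carry, was higher with 3831, 2269 and 4309 counts (2.71-fold, 2.58 to 2.85). It is typed as miscRNA in the table and was named after its values were seen.

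Of 20 conjugation enzymes 3 were higher and 1 was lower, 20% called against 2.95% of all genes. NAT8, which finishes the mercapturic acids made from glutathione conjugates, had 10465, 5396 and 9799 counts (2.59-fold higher, 2.51 to 2.68). TPMT, a thiopurine methyltransferase, had 541, 193 and 387 (2.86-fold higher, 2.403 to 3.42), and SULT2A1 was the other higher gene. INMT, which methylates indoleamines, had 1625, 5092 and 1107 (3.22-fold lower, 3.02 to 3.44). UGT1A3 and UGT1A6, which attach glucuronic acid to steroids and drugs, stood 1.43-fold (1.25 to 1.62) and 1.73-fold (1.54 to 1.94) above.

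Alcohol, aldehyde and retinol dehydrogenases gave 6 higher and 1 lower of 35 (20% called against 2.95% of all genes), with a median log2 fold of 0.03. ADH1C had 13634, 5984 and 14074 counts (3.36-fold, 3.26 to 3.46) and ADH7 114, 52 and 116 (3.19-fold, 2.28 to 4.51), both alcohol dehydrogenases that also oxidise retinol. RDH11 and RDH16, which interconvert retinol and retinal, were 3.03-fold (2.87 to 3.20) and 2.77-fold higher. CBR3, a carbonyl reductase, had 365, 130 and 537 counts (5.90-fold, 4.86 to 7.202), and DHRS7, named after its values were seen, had 5485, 2839 and 4548 (2.29-fold, 2.18 to 2.399). ALDH1A1, which makes retinoic acid, stood 2.01-fold above (1.95 to 2.07). ALDH3A1 was the lower gene with 256, 1112 and 300 counts (2.595-fold, 2.28 to 2.96), and STRA6, the cell surface receptor of the retinol carrier, stood 2.05-fold below (1.93 to 2.18).

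Genes of mitochondrial energy production gave 1 call. All 13 mitochondrially encoded protein genes and all 22 genes of the tricarboxylic acid cycle had intervals within 2-fold, as did 59 of 61 nuclear genes of the respiratory chain. CS, citrate synthase, stood 1.04-fold below (0.927 to 1.18). The 1 call in the respiratory chain was ATP5J2, a subunit of ATP synthase, lower with 1602, 2984 and 795 counts (2.63-fold, 2.43 to 2.84), while ATP5B, another subunit of the complex, stood 1.01-fold below (0.994 to 1.03). Among 37 mitochondrial carriers 4 were higher and 0 lower, 10.8% called against 2.95% of all genes. They were SLC25A25, an ATP-magnesium and phosphate carrier (2.76-fold, 2.43 to 3.13), SLC25A29, a carrier of basic amino acids (2.202-fold, 2.02 to 2.398), SLC25A34 (2.44-fold, 2.26 to 2.64) and the uncoupling protein UCP2 (2.83-fold, 2.49 to 3.21). UCP2 had 436, 377 and 746 counts and SLC25A34 1026, 1019 and 1741, so that IM lay with CM for both. Genes of cytosolic ribosomal proteins gave 0 calls among 70, with a median log2 fold of -0.27 and 69 of 70 below 0.

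Metallothionein genes fell while most of the redox set did not pass. The metallothionein genes MT-2B, MT1A and MT-III encode small zinc- and copper-binding proteins. They had 271, 7318 and 1615, 82, 4013 and 860, and 38, 1073 and 243 counts. MT-2B was 3.17-fold lower (3.01 to 3.35), MT1A 3.27-fold lower (3.03 to 3.52) and MT-III 3.09-fold lower (2.69 to 3.57), and in each the CMT pool still lay well above the intact one. The 3 are close copies that could share reads, so they are not independent. Among 50 genes of glutathione, redox and metal defence these were the 3 lower ones, and GGT1 was the 1 higher. The share called was 8% against 2.95% of all genes. GPX3, the secreted glutathione peroxidase made by the proximal tubule, had 348405, 549486 and 271873 counts and stood 1.42-fold below (1.41 to 1.42). The zinc exporter SLC30A1, which responds to the same metal sensor as the metallothioneins, stood 1.38-fold below (1.06 to 1.81). In purine handling 1 of 20 was lower and 0 higher, APRT, which salvages adenine, with 30, 206 and 10 counts (14.4-fold, 7.69 to 30.5). HPRT1, which salvages hypoxanthine and guanine, stood 1.15-fold below (0.952 to 1.39), and XDH, xanthine dehydrogenase, was under the CPM limit with 0, 2 and 1 counts.

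**Figure D5:**
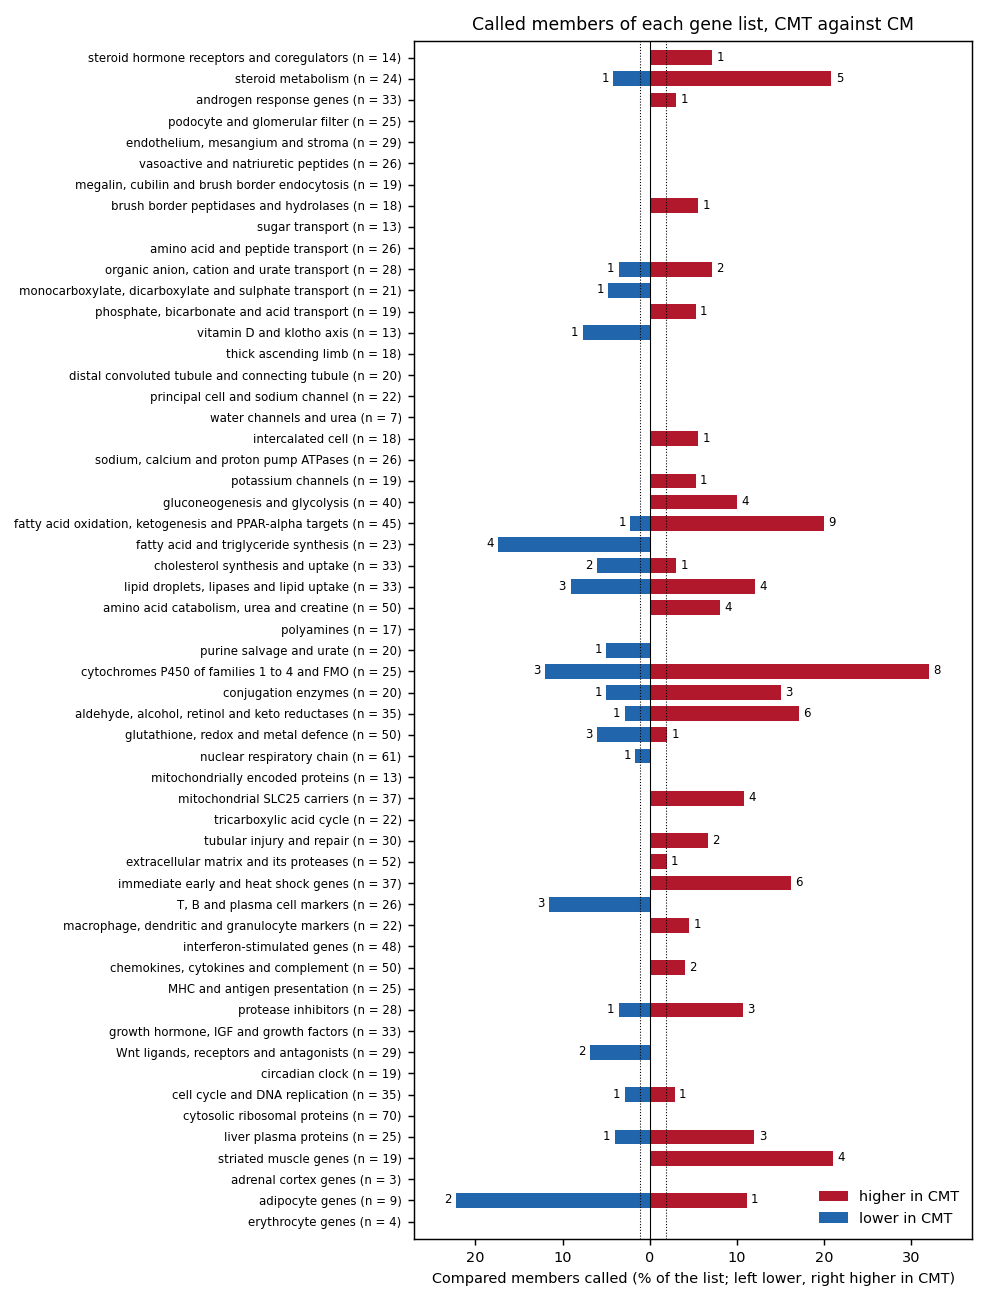
Share of the compared members of each of 56 gene lists that were called higher (right) or lower (left) in CMT than in CM (x, percent of the list), with the number called at each bar and the number compared in parentheses. Dotted lines mark the shares over all compared genes, 1.84% higher and 1.11% lower, and the cytochrome P450 list has the longest bar to the right.

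Early response genes were partly higher, while 28 of 30 injury and repair genes were not called. Of 37 immediate early and heat shock genes 6 were higher and 0 lower, 16.2% called against 2.95% of all genes. The median log2 fold was 0.60, with 34 of 37 above 0. ZFP36, an mRNA decay factor, had 93, 76 and 413 counts (7.76-fold, 6.06 to 10.05), FOS 706, 633 and 1276 (2.88-fold, 2.61 to 3.17), and GADD45G, a growth arrest gene, 877, 664 and 1674 (3.601-fold, 3.29 to 3.94). A row named HSP70.2, a heat shock gene with near-identical copies, had 6649, 6583 and 16312 counts (3.54-fold higher, 3.44 to 3.64). A row named C-JUN, the partner of FOS, was higher as well at 763, 945 and 1581 counts (2.39-fold, 2.203 to 2.59) and was named after its values were seen. The list names JUN, HSPA1A and HSPA1B, which had no row under those symbols. Its counts therefore leave out both the C-JUN and the HSP70.2 row. For FOS, HSP70.2, ZFP36 and C-JUN the intact pool lay nearer to CM than to CMT. Among 30 injury and repair genes CD44, an adhesion receptor of regenerating tubules, was higher at 2631, 844 and 3601 counts (6.09-fold, 5.65 to 6.58), as was S100A11 with 351, 20 and 235 (16.8-fold, 10.6 to 27.98), and 0 were lower. For both genes the CM pool was the lowest of the 3. The share called in this list was 6.67% against 2.95% of all genes. LCN2, a marker of tubular damage, stood 1.08-fold below (0.905 to 1.297), and HAVCR1 had 1, 1 and 0 counts. In the matrix list 1 of 52 was higher, the protease ADAMTS4, on 25, 9 and 33 counts (5.24-fold, 2.45 to 12.4). Its share called was 1.92%, under the 2.95% of all genes.

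Markers of lymphocytes were lower in part. Of 26 T, B and plasma cell markers 3 were lower and 0 higher, 11.5% called against 2.95% of all genes. The median log2 fold was -0.45, and the summed level of the list was 196.5, 305.1 and 199.9 CPM. Most of the gap in that sum between CM and CMT came from IGJ alone. IGJ, the joining chain of secreted antibodies, had 267, 1924 and 288 counts (4.68-fold, 4.13 to 5.31), CD247, a T cell receptor chain, 164, 435 and 109 (2.79-fold, 2.26 to 3.48) and CD79A, of the B cell receptor, 18, 54 and 8 (4.73-fold, 2.24 to 11.5). The T cell gene CD3D, with 32, 81 and 41 counts, stood 1.38-fold below (0.939 to 2.07). Of 22 macrophage, dendritic and granulocyte markers 1 was higher, S100A12 of granulocytes, with 7, 5 and 87 counts (24.9-fold, 10.3 to 78.5). The chemokine CCL4 had 334, 61 and 182 counts (4.26-fold higher, 3.17 to 5.79) and IL1B, an inflammatory cytokine, 79, 15 and 53 (5.05-fold higher, 2.802 to 9.64), the 2 calls among 50 chemokine, cytokine and complement genes. That share of 4% is near the 2.95% of all genes. Neither the 48 interferon-stimulated genes nor the 25 genes of antigen presentation had a call.

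Of 28 protease inhibitors 3 were higher and 1 was lower, 14.3% called against 2.95% of all genes. SLPI, an inhibitor of neutrophil elastase, had 5675, 587 and 9103 counts (22.1-fold, 20.4 to 24.1). SERPINF1, an antiangiogenic serpin, had 1167, 376 and 874 (3.32-fold, 2.94 to 3.76), and SERPINC1, antithrombin, 574, 344 and 646 (2.68-fold, 2.35 to 3.07). PROC, the anticoagulant protein C and a call named after its values were seen, had 4211, 1458 and 2687 (2.63-fold, 2.47 to 2.81). Other coagulation genes were not called, with F2, prothrombin, 1.102-fold (1.05 to 1.15) and F9 1.14-fold (1.07 to 1.21) above, and F10 1.96-fold below (1.66 to 2.34). CST6, a cystatin, was the lower inhibitor with 868, 1094 and 230 counts (3.33-fold, 2.89 to 3.86). Growth hormone and growth factor genes (33) and clock genes (19) gave 0 calls. Among 35 cell cycle genes 1 was higher, CENPF of the kinetochore with 42, 20 and 64 counts (4.57-fold, 2.73 to 7.97), and 1 lower, 5.71% called. In the Wnt list the antagonists SFRP2 with 466, 352 and 65 counts (3.79-fold, 2.903 to 5.02) and DACT2 with 5, 117 and 12 (6.83-fold, 3.76 to 13.6) were lower, and 0 of 29 were higher, 6.9% called.

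Some genes best known from liver and muscle also differed. ALB, the albumin gene, had 1952, 24 and 404 counts (24.04-fold higher, 15.9 to 37.97) and AFP, fetal albumin, 194, 6 and 111 (26.4-fold, 11.8 to 73.5). TTR, the thyroxine carrier, had 133, 489 and 775 (2.26-fold, 2.02 to 2.54), and APOC3 ran the other way. That made 3 higher and 1 lower of 25 liver plasma protein genes, 16% called against 2.95% of all genes. ACTC1, cardiac actin, had 2588, 505 and 5506 counts (15.6-fold, 14.2 to 17.1), COLQ, the tail of synaptic acetylcholinesterase, 399, 20 and 515 (36.8-fold, 23.6 to 60.7) and VGLL2, a muscle cofactor, 105, 4 and 212 (75.7-fold, 29.1 to 280.4). A row of type miscRNA with the looked-up symbol TRDN was higher too (21.2-fold, 9.36 to 59.3). These were the 4 higher of 19 muscle genes (21.1% called), 0 were lower, and the muscle list summed to 775.6, 462.8 and 987.6 CPM. ACTC1 alone held 156.3, 26.72 and 416 CPM of that sum, most of the gap between CM and CMT. The myosin heavy chain genes MYH1, MYH2, MYH6 and MYH7 had at most 3 counts in any library. Other members were well detected and not called, such as CKM, muscle creatine kinase, with 412, 387 and 275 counts (1.01-fold above, 0.866 to 1.19), CASQ2 with 537, 612 and 294 (1.46-fold below, 1.27 to 1.68) and RYR2 with 1591, 1355 and 1695 (1.79-fold above, 1.66 to 1.92).

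Further genes had intervals far from 1. DCDC2B with 190, 0 and 102 counts, PTCHD2 with 131, 0 and 118, and BD123, a beta-defensin, with 75, 0 and 56 were at least 48.6-fold, 56.2-fold and 26.7-fold higher with 3 counts put in CM, their intervals starting at 38.8, 44.98 and 20.98. ARMC12 had 200, 11 and 273 counts (35.4-fold, 19.5 to 71.8), CTXN3 86, 8 and 103 (18.4-fold, 8.99 to 43.7) and BVES 514, 67 and 534 (11.4-fold, 8.82 to 14.9). A row named tRNA-Arg, a name carried by many gene copies, had 4, 2 and 86 counts, a ratio of 61.4 (16.5 to 515). On the lower side stood RPA3, of single-strand DNA binding and the lower gene of the cell cycle list, with 39, 56 and 3 (ratio 13.1, 4.25 to 65.3), and INO80B, of chromatin remodelling, with 47, 38 and 0 (at least 8.87-fold, interval from 6.87). NPTX1, GAS2L2, CLCA2, CELA2A, TMED6 and CACNA1I were lower by 4.81-fold to 6.29-fold. CLEC18A, a lectin with near-identical copies, had the highest mean CPM over the 3 libraries of the lower genes, with 9945, 22520 and 7472 counts (2.11-fold, 2.06 to 2.17). MAN1C1, a Golgi mannosidase, had 2418, 6208 and 1334 counts (3.26-fold, 3.07 to 3.46), ARVCF, a catenin, 3249, 5638 and 1836 (2.15-fold, 2.04 to 2.27), and POLM, a DNA repair polymerase, 704, 2024 and 462 (3.07-fold, 2.77 to 3.401).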

How the data were processed

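The authors deposited raw counts per gene, whole numbers in 1 column for each pooled library. Per the labels' protocols, TRIzol was used for total RNA, which was pooled in equal amounts and made into libraries with an Ion Torrent total RNA kit, whereas the design text names an Illumina sequencer and triplicates; the platform was not settled here. FastQC is the only tool named in the submitters' processing notes. The labels name no aligner, counting program, strand setting, genome build or annotation. Coordinates are therefore left out, and reads of near-identical, overlapping or antisense genes could not be told apart.

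Counts were scaled with TMM factors of 1.006 (IM), 1.022 (CM) and 0.973 (CMT) from edgeR 4.0.16 in R 4.3.3, and CPM are on that scale. Folds are ratios of scaled counts, each with a Clopper-Pearson 95% interval (scipy 1.17.1). Log2 folds used a prior count of 2. Where a library had 0 counts, 3 were put in, equal to 0.159 CPM in CM and 0.227 in CMT. Numbered identifiers were given 1556 symbols from the RefSeq gene table of Sscrofa11.1, such as CUBN, UMOD, ATF3, CST6 and PNPLA3. The rule was run on simulated counts with known folds and counting error only, so that run says nothing of spread between pigs.

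Named genes are the 20 higher and 20 lower genes with a symbol whose interval bound lies farthest from 1, the 12 and 12 most abundant called, up to 5 called genes a list and direction, 60 fixed genes, of which 5 are not analysed here, and 3 genes on each side of the CPM limit. Some are left out of the text. The comparison, the rule and the 56 lists were chosen with earlier results of these data known. Alternatives covered scaling (total counts, DESeq2 1.42.0, upper quartile), filters, thresholds, the interval level, thinning and gene type.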

Additional observations from a re-analysis of the deposited data

How the results depend on the processing

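The counts of 285 higher and 171 lower genes depended most on the threshold. With the interval wholly beyond 1.5-fold they were 570 and 404, and beyond 3-fold 129 and 67. With a fold of at least 2 after adding a prior count of 2, and no interval, they were 559 and 448. At a mean of at least 5 CPM, where fewer genes are tested, 201 were higher and 99 lower. Plain total counts gave 253 and 189 and shifted the median log2 fold from -0.004 to -0.074. The other alternatives gave 242 to 346 higher and 125 to 204 lower genes. Of 119 named called genes 66 kept their call under each of the 13 alternatives that gave them a value, and 0 turned direction. At 3-fold 53 lost it, with plain totals KIAA1191, SLC25A29 and TTR, at a 99% interval CD79A, SLC22A7, SLC25A29 and TTR, and after thinning CM to the total of CMT SLC22A7, SLC25A29 and TTR. At 1.5-fold CYP27B1, FKBP5 and GATM were called. No paired analysis was possible because each group is 1 pooled library. No library could be left out for the same reason. Depth limits the genes between 1 and 3 CPM, of which 22.8% have an interval within 2-fold.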

Other observations

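The genes of these first paragraphs lie outside the naming rule and were picked after their values were seen, except GAS2L2. No list of cilia genes was counted. FOXJ1, the master transcription factor of motile cilia, had 256, 118 and 301 counts in IM, CM and CMT (3.64-fold, 2.94 to 4.55), and GMNC, which acts upstream of it, 120, 22 and 103 (6.69-fold, 4.19 to 11.1). DNAH5, a dynein arm gene, had 11, 9 and 33 counts (5.24-fold, 2.45 to 12.4) and DNAJB13, of the radial spoke, 21, 11 and 36 (4.67-fold, 2.33 to 10.2). GAS2L2, which also serves motile cilia, went against them with 150, 521 and 58 counts (6.29-fold lower, 4.79 to 8.399).

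The bile acid receptor gene NR1H4 had 957, 536 and 921 counts (2.45-fold higher, 2.204 to 2.73), and NR0B2, a repressor gene that this receptor is known to induce, had 29, 17 and 46 (3.87-fold higher, 2.17 to 7.19). MFSD2A, a carrier of lysophospholipids with omega-3 fatty acids, had 161, 38 and 322 counts (12.1-fold higher, 8.63 to 17.4), and PEMT, which makes phosphatidylcholine, 1140, 779 and 1433 (2.63-fold higher, 2.41 to 2.87). GPC3, a heparan sulfate proteoglycan, had 7227, 1664 and 6495 counts (5.58-fold higher, 5.28 to 5.89) and GJB1, the gap junction protein connexin 32, 4439, 2207 and 4560 (2.95-fold higher, 2.804 to 3.11). PM20D1, a secreted enzyme that makes N-acyl amino acids, had 16155, 8529 and 13937 counts (2.33-fold higher, 2.27 to 2.398). JAZF1, a zinc finger gene, had 374, 71 and 397 (7.99-fold higher, 6.19 to 10.4). For NR1H4, GPC3, GJB1, PM20D1 and JAZF1 the CM pool was the lowest of the 3.

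Genes without a symbol were called more often than those with one, 114 higher and 96 lower of 3798 against 171 and 75 of 11674. One of the lower noncoding rows, LOC102165485, had 1167, 26963 and 1902 counts (9.93-fold lower, 9.47 to 10.4). LOC100627844, typed as mRNA, had 25786, 5753 and 34250 (8.503-fold higher, 8.27 to 8.74). By type, 20 of 422 ncRNA rows were lower and 8 higher, while 136 of 13984 mRNA rows were lower and 242 higher.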
